A study of Homo sapiens with 171 samples.

Results

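Aldehyde dehydrogenases oxidise reactive aldehydes to carboxylic acids with a nicotinamide cofactor. The 8 genes described here are ALDH1A1, ALDH1A2, ALDH1A3, ALDH1B1, ALDH2, ALDH3A1, ALDH3A2 and ALDH3B1, which are 8 of the 18417 genes measured. They were chosen by symbol, from probe sets annotated to a single gene, and of several probe sets for a gene the brightest on average was used. Only ALDH1A3 had 2 probe sets. The 3 ALDH1A enzymes make retinoic acid from retinal, ALDH1B1 and ALDH2 work in mitochondria, and the ALDH3 enzymes act on aromatic and fatty aldehydes. In ovarian cancer, ALDH1A1 protein and aldehyde dehydrogenase activity are widely used as markers of stem-like cells and have been studied in connection with platinum resistance.

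The arrays covered 46 established ovarian cancer cell lines, each left untreated or treated for 48 h with cisplatin, a platinum drug that crosslinks DNA. Each line received its own GI50, a concentration set by how strongly the drug slows its growth, so the dose differed between lines, and the doses themselves were not analysed here. Batches 1 to 3 held 18 lines with 3 untreated and 3 treated cultures apiece (only 2 treated ones for HeyA8), and batches 4 and 5 held 28 further lines with a single culture for each condition. Values are log2 array signals, and a difference of 1 is a doubling. The labels do not say whether numbered cultures were grown apart, and the spread behind a p-value for 1 line may therefore be technical. Batches 1 to 3 and batches 4 and 5 were on different scales, and levels are therefore compared only within a batch.

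Of 107 cultures of the replicated lines, 106 correlated best with another culture of their own line. The exception was treated culture 1 of OVCAR-10, which correlated at 0.959 with its own line and at 0.961 with DOV13B, while the other OVCAR-10 cultures correlated with each other at 0.995. Among the 29 pairs of 1 treated and 1 untreated array in batches 4 and 5, the treated arrays of OAW28 and TOV-21G correlated better with another line, M41 and TOV-112D respectively. The treated Hey array correlated at 0.834 with untreated Hey, and 37.7% of genes differed by more than 1 between them, against a median of 2.64% over the 29 pairs. Changes over lines that these arrays move by more than 1.5 times are given with and without them where the mean change is described. In milder form, treated culture 3 of OVCA420 also differed from the other treated cultures of its line. It correlated at 0.982 with its own line, where they had 0.994, and at 0.949 with OVCA429, where they had 0.911. Some lines of batches 4 and 5 were also alike. Treated TOV-112D correlated at 0.977 with TOV-21G, and treated M41 at 0.965 with OAW28. Treated Caov-2 correlated at 0.982 with OVCAR-2, and treated OVCAR-2 at 0.979 with Caov-2. All of them counted as separate lines in the tests over 46 lines, also where relatives were left out. A shared origin was not tested. In the median array of batches 1 to 3, the markers above the dim reference explained with the untreated levels were all 6 epithelial ones, 4 of 6 of the ovarian lineage, 3 of 6 of fibroblasts (COL1A1, COL1A2 and COL3A1), 2 of 6 of endothelium (CDH5 and ENG) and 1 of 9 of leukocytes (TYROBP). In batches 4 and 5 the counts were 6 epithelial, 2 ovarian lineage, 1 fibroblast, 0 endothelial and 0 leukocyte markers. All 4 p53 target genes used as a check of the treatment rose, with CDKN1A higher by 0.63 ± 0.08 (SE, 46 lines; limma, adjusted p = 8.49e-07).

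ALDH1A1 and ALDH1A3 varied most between untreated lines among the 8 genes. Their promoter windows, the 250 bases before the transcript start in RefSeq on GRCh38.p14, are shown because the 2 genes differ in base composition there. The ALDH1A1 window is chr9:72953054-72953303 on the minus strand and the ALDH1A3 window is chr15:100879581-100879830 on the plus strand. Capitals mark CCAAT and GGGCGG on either strand, so that CCGCCC also appears in capitals.
ALDH1A1: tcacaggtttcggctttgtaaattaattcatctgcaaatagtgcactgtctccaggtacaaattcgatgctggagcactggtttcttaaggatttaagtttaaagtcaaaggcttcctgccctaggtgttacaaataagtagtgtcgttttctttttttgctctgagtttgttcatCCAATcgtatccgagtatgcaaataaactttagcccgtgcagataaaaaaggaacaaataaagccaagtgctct
ALDH1A3: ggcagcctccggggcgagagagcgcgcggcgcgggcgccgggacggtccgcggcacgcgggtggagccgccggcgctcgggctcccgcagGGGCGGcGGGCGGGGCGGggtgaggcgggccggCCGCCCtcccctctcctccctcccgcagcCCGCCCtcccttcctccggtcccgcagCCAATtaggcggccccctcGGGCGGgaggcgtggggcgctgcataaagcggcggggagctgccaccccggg
GC content was 38.4% in the ALDH1A1 window and 82.4% in the ALDH1A3 window, at the percentiles 10.1 and 98.6 of 35116 such windows, whose median was 58.0%. The dinucleotide CG occurred 6 times in the ALDH1A1 window and 38 times in that of ALDH1A3. Both windows held 1 CCAAT, 74 and 71 bases before the start. GGGCGG occurred 6 times before ALDH1A3, with 2 of the copies sharing a base, and not before ALDH1A1. CCAAT was found in 32% of all windows, GGGCGG in 42.6%, and TATAA, which neither window held, in 18.9%. These are matches of letters and were not tested as binding sites. Windows were on hand for 6 of the 8 genes.

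Untreated levels differed widely between lines. As a rough guide to which signals were dim, the 95th percentile of the olfactory receptor probe sets, genes that these cells hardly express, was taken on each array. Over the arrays of batches 1 to 3 this reference ran from 4.81 to 5.59, and over those of batches 4 and 5 from 4.08 to 5.41. Probe sets differ in how well they bind, so it marks no strict limit for any single gene. Fold ranges below are ratios of the deposited signals, and those against a dim line include its background.

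**Figure D1:**
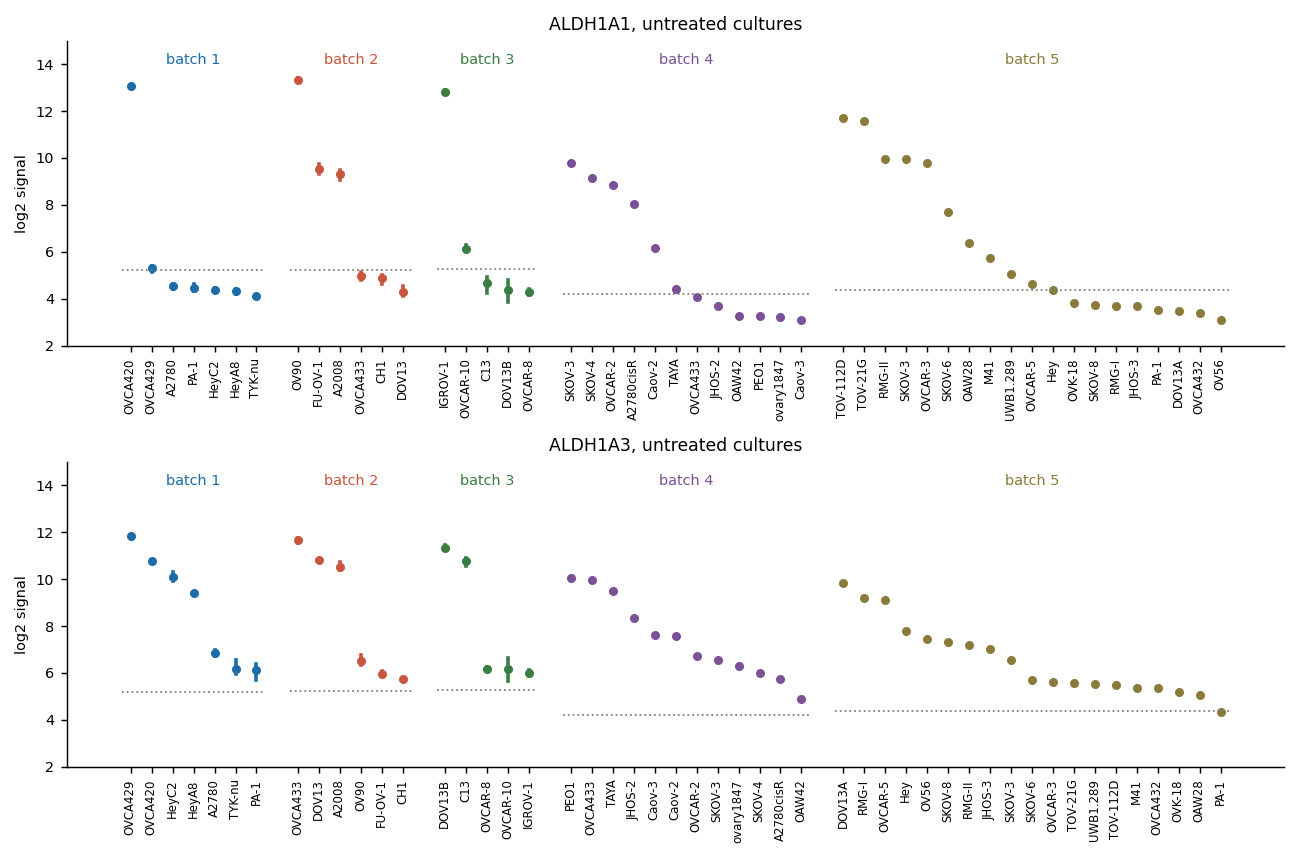
Untreated log2 signal of ALDH1A1 and ALDH1A3 in each line, ordered within each of the 5 batches. Points are means, bars run from the lowest to the highest culture where there were 3, and dotted lines are the median dim reference of the batch. ALDH1A1 was far above the other lines in OVCA420 and IGROV-1 within their batches, whereas ALDH1A3 split each of batches 1 to 3 into a high and a low set of lines.

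ALDH1A1, the retinal dehydrogenase most often measured in ovarian cancer, was the most variable of the 8 genes. Its untreated level had an SD of 2.99 over the 46 lines after centring on the batch, at percentile 99.98 of all genes, whose median SD was 0.389. In batch 1 the 3 untreated cultures of OVCA420 lay between 13.04 and 13.12. The next line, OVCA429, lay between 5.14 and 5.41, and the lowest, TYK-nu, between 4.02 and 4.16, so the means spanned 509-fold. A2780, PA-1, HeyC2 and HeyA8 lay in between with means of 4.52, 4.43, 4.38 and 4.34, and the cultures of neighbours in that order overlapped. In batch 2, OV90 was highest at 13.33 ± 0.07 (SD, n = 3), FU-OV-1 followed at 9.52 ± 0.22 (SD, n = 3) and A2008 at 9.31 ± 0.22 (SD, n = 3), the latter pair overlapping. OVCA433, CH1 and DOV13 lay at 4.95, 4.86 and 4.28. In batch 3, IGROV-1 stood at 12.83 ± 0.08 (SD, n = 3) and OVCAR-10 at 6.12 ± 0.14 (SD, n = 3), above C13, DOV13B and OVCAR-8 at 4.66, 4.39 and 4.26.

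With 1 untreated culture per line, batches 4 and 5 also held lines of high and of dim ALDH1A1 signal. In batch 4 the highest were SKOV-3 at 9.80, SKOV-4 at 9.14 and OVCAR-2 at 8.86, and the lowest were PEO1, ovary1847 and Caov-3 at 3.26, 3.21 and 3.07. In batch 5 the highest were TOV-112D at 11.70, TOV-21G at 11.59 and RMG-II at 9.95, and the lowest were DOV13A, OVCA432 and OV56 at 3.46, 3.38 and 3.10. SKOV-3, whose untreated cells were measured in both batches, had 9.80 and 9.93. In all, ALDH1A1 was above the dim reference of its arrays in 21 of 46 lines, 6 of 18 in batches 1 to 3 and 15 of 28 in batches 4 and 5.

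ALDH1A3, a retinal dehydrogenase with the same activity, ranged 52.1-fold in batch 1, 60.9-fold in batch 2 and 41.4-fold in batch 3. OVCA429 at 11.82, OVCA420 at 10.77, HeyC2 at 10.10 and HeyA8 at 9.40 formed the upper set of batch 1, with no overlap between neighbours. They were followed by A2780 at 6.84, TYK-nu at 6.18 and PA-1 at 6.12, the last pair overlapping. In batch 2, OVCA433, DOV13 and A2008 lay at 11.65, 10.80 and 10.53, and OV90, FU-OV-1 and CH1 at 6.51, 5.96 and 5.73. In batch 3, DOV13B and C13 lay at 11.35 and 10.77, and OVCAR-8, OVCAR-10 and IGROV-1 at 6.17, 6.16 and 5.98 with overlapping cultures. PEO1, OVCA433 and TAYA led batch 4 at 10.03, 9.97 and 9.50, and DOV13A, RMG-I and OVCAR-5 led batch 5 at 9.83, 9.21 and 9.09. The correlation of ALDH1A1 and ALDH1A3 over the lines was -0.27 (Pearson; Spearman -0.27), and of the lines with ALDH1A1 far above the others of its batch, OV90 and IGROV-1 had low ALDH1A3 while OVCA420 had both.

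ALDH1A2, the retinal dehydrogenase of the embryo, stood out in few lines. Its 3 untreated cultures of FU-OV-1 had 9.60, 9.64 and 9.83, and those of OVCAR-8 had 7.16, 6.81 and 7.03, while the other lines of batches 1 to 3 had means of 5.34 or less. The highest of these means, in A2008, came from 1 culture. Untreated culture 1 of A2008 had 7.03 and the other 2 had 4.65 and 4.34, and among other lines that culture correlated best with FU-OV-1, at 0.947. In batches 4 and 5 the highest were RMG-I at 5.23 and RMG-II at 4.98. ALDH1A2 was above the dim reference in 5 of 46 lines.

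The mitochondrial enzymes differed in how much they varied. ALDH1B1 was even across lines, with means between 8.67 (HeyC2) and 10.04 (PA-1) in batch 1, 9.13 (A2008) and 9.96 (CH1) in batch 2, and 9.29 (OVCAR-8) and 10.03 (IGROV-1) in batch 3, and with an SD over lines of 0.429. Its single cultures of batches 4 and 5 ran from 8.39 (OVCAR-3) to 10.49 (SKOV-4). It was above the dim reference in all 46 lines. ALDH2, which clears acetaldehyde, ranged 29.4-fold in batch 1, from A2780 at 9.89 ± 0.02 (SD, n = 3) down to HeyC2 at 5.01 ± 0.20 (SD, n = 3), where no neighbours in the order overlapped. FU-OV-1 had the highest ALDH2 of batch 2 at 9.44, followed by CH1 at 9.28, whose cultures overlapped those of A2008, and IGROV-1 had the highest of batch 3 at 9.40, against 5.39 in OVCAR-8. In batches 4 and 5 the levels ran from 7.61 in TAYA to 4.62 in OVCA433, and from 6.16 in OVCA432 to 3.88 in TOV-21G. ALDH2 was above the dim reference in 41 of 46 lines.

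Among the ALDH3 genes, ALDH3A1, an enzyme of aromatic aldehydes known as a major protein of the cornea, was high in 3 replicated lines. C13 had 11.30 ± 0.08 (SD, n = 3) and A2008 had 10.33 ± 0.23 (SD, n = 3), against 6.20 and 6.32 in the next lines of their batches, and OVCA420 had 7.74 ± 0.09 (SD, n = 3) against 5.97. The remaining lines of batches 1 to 3 lay between 5.72 and 6.32, and neighbours in the order overlapped. No line of batches 4 and 5 exceeded 5.21, the level in OVCAR-5. ALDH3A1 was above the dim reference in 32 of 46 lines, 18 of 18 in batches 1 to 3 and 14 of 28 in batches 4 and 5. ALDH3A2, the microsomal fatty aldehyde dehydrogenase that is lost in Sjögren-Larsson syndrome, was highest in OVCA420 at 9.49, A2008 at 10.30 and C13 at 9.58 within batches 1, 2 and 3. Its lowest level was 2.82 in the single untreated culture of RMG-I in batch 5, while the next line, SKOV-8, had 5.83 and RMG-II had the highest level of the batch at 8.74. ALDH3A1 and ALDH3A2 are near neighbours on chromosome 17, with SLC47A2 between them in the RefSeq gene order. Over lines their untreated levels correlated at 0.70 in batches 1 to 3 and at -0.01 in batches 4 and 5. Within batches 1 to 3 both genes were highest in OVCA420, A2008 and C13, and the last 2 are related lines. ALDH3B1, which acts on aldehydes from lipid peroxidation, had an SD over lines of 0.410, with the highest means in OVCA429 at 8.70, DOV13 at 8.08 and C13 at 8.53 in batches 1 to 3.

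In limma's F test over the 18 replicated lines, with Benjamini-Hochberg adjustment over all genes, the untreated level of all 8 genes differed between lines of the same batch, with adjusted p-values from 4.09e-71 for ALDH1A1 to 4.51e-28 for ALDH3B1. Of all genes, 86.8% passed this test, so passing it does not set these 8 apart.

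**Figure D2:**
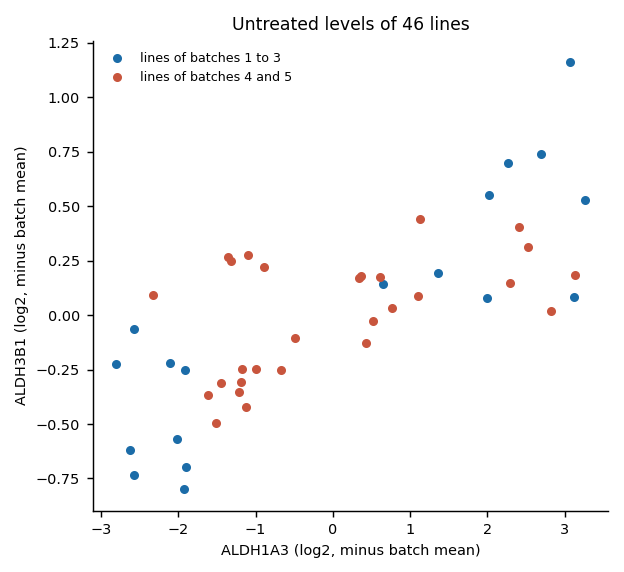
Untreated level of ALDH3B1 against that of ALDH1A3, both minus the mean of the line's batch on the log2 scale, with 1 point per line. Lines with high ALDH1A3 had higher ALDH3B1, with a Pearson r of 0.74 over 46 lines.

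Among the pairs of the 8 genes, ALDH1A3 and ALDH3B1 went together most closely, at r = 0.74 (Spearman 0.70) over 46 lines, 0.85 in batches 1 to 3 and 0.53 in batches 4 and 5. ALDH1A1 and ALDH3A2 correlated at 0.43, at 0.26 and 0.53 in the 2 sets of batches. The points of these correlations share arrays and batches, and some lines are related, so they serve as a description only. Over all genes, the untreated pattern most like that of ALDH1A3 was found for TBC1D2 (r = 0.80), TGFBI (0.80) and TGFA (0.79), and in batches 4 and 5 alone these had 0.61, 0.68 and 0.78. For ALDH3B1 the most alike were TNFAIP2 (0.81), PLCD3 (0.79) and VSIR (0.77). For ALDH3A1 they were ZBTB7C (0.93), DSG3 (0.93) and KRT13 (0.92), with 0.19, -0.02 and 0.37 in batches 4 and 5, where no line was high. ALDH3A1 was 4.25 and 3.60 above the batch mean in the related lines C13 and A2008, followed by 1.59 in OVCA420, so few lines weigh heavily. For ALDH1A2 the most alike were CDH16 (0.86), PAX2 (0.79) and PCP4 (0.78), with 0.18, 0.09 and 0.12 in batches 4 and 5. HIBCH (0.70), RPP14 (0.62) and PDHB (0.60) were the most alike to ALDH3A2. For the remaining genes the most alike were ZBTB39 (0.67), GGT7 (0.67) and TMEM132A (0.66) for ALDH2, SHPRH (0.62), ZNF45 (0.61) and NUP160 (0.60) for ALDH1A1, and EXTL3 (0.62), USP31 (0.61) and ZNF614 (0.60) for ALDH1B1.

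Lines of common origin did not always share these levels. HeyC2 and HeyA8, both derived from Hey cells and both in batch 1, were compared within the fit of the replicated lines, a comparison chosen after their values were seen. Relative to HeyA8, HeyC2 had ALDH1B1 lower by 0.70 ± 0.08 (SE; limma, adjusted p = 9.75e-11), ALDH2 lower by 0.59 ± 0.14 (adjusted p = 0.000618) and ALDH3A2 higher by 0.62 ± 0.09 (adjusted p = 9.25e-09), with 3 cultures each. The other 5 genes did not pass, ALDH1A3 included, at 0.71 ± 0.33 higher (adjusted p = 0.110). Of all genes, 24.2% passed. A2008 and its cisplatin-selected derivative C13 were run in batches 2 and 3, so line and batch cannot be told apart. ALDH1A1 was 9.31 in A2008 and 4.66 in C13, and ALDH3A1 was 10.33 and 11.30. A2780 and its derivative A2780cisR were measured in batches 1 and 4, on different scales. ALDH2 was the highest of 7 lines in A2780, at 9.89, and number 10 of 12 in A2780cisR, at 4.90, while ALDH1A1 was 4.52, under the dim reference, in A2780 and 8.02, number 4 of 12, in A2780cisR.

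After 48 h of cisplatin, 2 of the 8 genes had fallen over the 46 lines, ALDH3A2 and ALDH2, and the changes were small. The treated minus untreated difference was taken within each line and batch, and the 46 differences were tested with limma. Of all genes, 9.7% passed, 4.98% upward and 4.72% downward. The median change of the 8 genes was -0.09 and that of all genes -0.01, and 7 of the 8 were below 0, as were 53.1% of all genes. Of these 7, 5 did not pass, among them ALDH1A2 at -0.0094 and ALDH3B1 at -0.019. In cultures measured as a whole, fewer cells with a transcript and less of it per cell cannot be told apart.

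**Figure D3:**
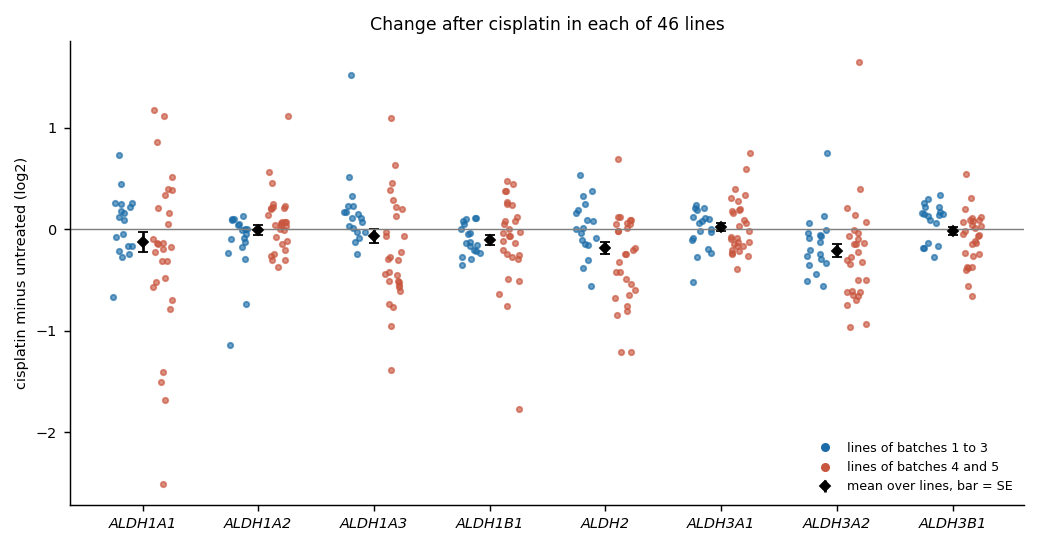
Cisplatin minus untreated (log2) for each of the 8 genes in each of 46 lines, split by set of batches, with the mean over lines and its SE as a black diamond and bar. The means of ALDH3A2 and ALDH2 are the lowest, at -0.21 and -0.18, and ALDH1A1 has the widest spread of changes.

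ALDH3A2 fell by 0.21 ± 0.06 (SE, 46 lines; limma, adjusted p = 0.0216), a 1.16-fold decrease, and was lower in 38 of 46 lines. Its changes ran from -0.96 in Hey to 1.65 in RMG-I, where the untreated signal was not above the dim reference, with a median of -0.23. The mean change was below 0 in every batch, at -0.22, -0.16, -0.01, -0.46 and -0.12 in batches 1 to 5, and of the single batches only batch 4 passed (limma, adjusted p = 0.0145). Without batch 4 the mean was -0.13 (adjusted p = 0.375). With HeyC2, Hey, DOV13A, DOV13B, A2780cisR and C13 left out as relatives of other lines, and PA-1 and CH1 both kept, it was -0.19 (adjusted p = 0.0622). With batches weighted equally it was -0.19 (adjusted p = 0.104). Leaving out any single line kept the call, with adjusted p-values from 0.000612 to 0.0362, and leaving out Hey, OAW28, TOV-21G and treated culture 1 of OVCAR-10 together also kept it (adjusted p = 0.0430).

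ALDH2 fell by 0.18 ± 0.06 (SE, 46 lines; limma, adjusted p = 0.0420), a 1.13-fold decrease, and was lower in 27 of 46 lines. Its changes ran from -1.21 in JHOS-2 and -1.21 in Hey to 0.69 in SKOV-6, where the untreated signal of 4.48 was not above the dim reference. The mean was -0.31 in the 28 lines of batches 4 and 5 and 0.013 in the 18 lines of batches 1 to 3, and by batch it was 0.013, -0.15, 0.21, -0.28 and -0.28. The call was lost without any 1 of 20 lines, with an adjusted p of up to 0.0698 without JHOS-2, and without the arrays that stood apart (adjusted p = 0.0579). The difference between the sets of batches was -0.32 ± 0.11 (limma, unadjusted p = 0.0074, adjusted p = 0.267). None of the 8 genes passed that test of a difference between the sets of batches, where 0.0814% of all genes did. Unadjusted p-values of this test were also under 0.05 for ALDH1A2, ALDH1A3 and ALDH3B1. The share of all genes under that cutoff is not given here, so it does not set these genes apart. Without treated culture 1 of OVCAR-10, ALDH3B1 had an unadjusted p of 0.071. With Hey, OAW28 and TOV-21G also left out, ALDH3B1 had 0.0218 and ALDH1A2 had 0.0848.

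The other 6 genes did not pass over all lines. ALDH1B1 had -0.11 ± 0.05 (SE; adjusted p = 0.230), from -1.77 in Hey and -0.76 in RMG-I to 0.48 in A2780cisR. Without Hey its mean was -0.069 (adjusted p = 0.293). ALDH1A1 had -0.13 ± 0.10 (SE; adjusted p = 0.480) with the widest spread of changes, an SD of 0.680, although this was 4.39 times smaller than the SD of its untreated level. Its lowest changes were -2.50 in OAW28, whose treated array was nearer to M41 and without which the mean was -0.073 (adjusted p = 0.681), then -1.68 in OVCAR-2 and -1.51 in SKOV-4. Its highest were 1.18 in OVCA432, 1.12 in TAYA and 0.86 in A2780cisR, and each of these 6 rests on 1 culture per arm. Untreated OVCA432, at 3.38, was not above the dim reference. ALDH1A3 had -0.07 ± 0.07 (SE; adjusted p = 0.648), from -1.39 in JHOS-2 to 1.52 in OVCAR-10 and 1.10 in OVCA432. Its mean was 0.18 in batches 1 to 3 and -0.22 in batches 4 and 5 (difference -0.40 ± 0.14, unadjusted p = 0.0056, adjusted p = 0.244), and its second probe set had a mean change of 0.030 over the lines. Without treated culture 1 of OVCAR-10 the mean in batches 1 to 3 was 0.11 and the difference -0.33 ± 0.13 (unadjusted p = 0.0112, adjusted p = 0.329). Over all lines the ALDH1A3 mean was -0.10 without OVCAR-10 (adjusted p = 0.375) and -0.038 without JHOS-2 (adjusted p = 0.809). ALDH3A1, ALDH1A2 and ALDH3B1 had 0.020, -0.0094 and -0.019, with adjusted p-values of 0.824, 0.942 and 0.831. Without Hey, ALDH1A2 had -0.034 (adjusted p = 0.672) and ALDH3A1 had 0.013 (adjusted p = 0.880), and without OAW28, ALDH3B1 had -0.032 (adjusted p = 0.691). The 95% intervals ran from -0.057 to 0.098 for ALDH3A1, from -0.11 to 0.087 for ALDH1A2 and from -0.097 to 0.058 for ALDH3B1. ALDH3A1 and ALDH1A2 were not above the dim reference in every line, which limits how far a fall could show.

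Within the 18 replicated lines, each gene was tested in each line with a model that shared 1 estimate of the spread per gene, and p-values were adjusted over all genes in a line. Of the 144 pairs of gene and line, 16 passed, which is 11.1%, against 8.23% over all genes. Of these, 12 were lower, where 3.68% of all pairs passed downward, and 4 were higher, where 4.55% did.

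**Figure D4:**
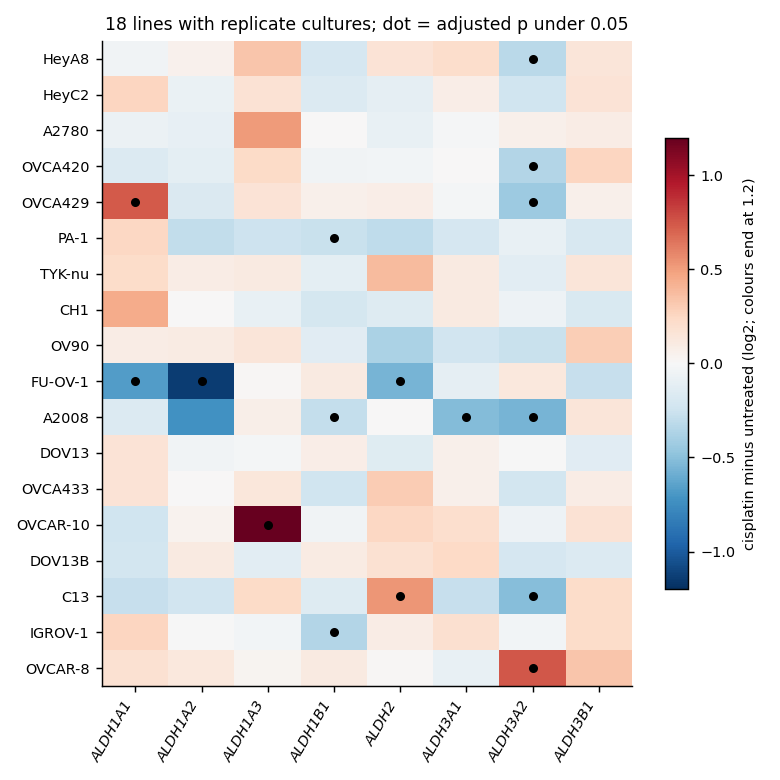
Cisplatin minus untreated (log2) of the 8 genes in the 18 lines with replicate cultures, with a dot where the adjusted p was under 0.05. Of the 16 dots, 6 are in ALDH3A2 and none is in ALDH3B1; the one of ALDH1A3 in OVCAR-10 rests on 1 culture.

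**Figure D5:**
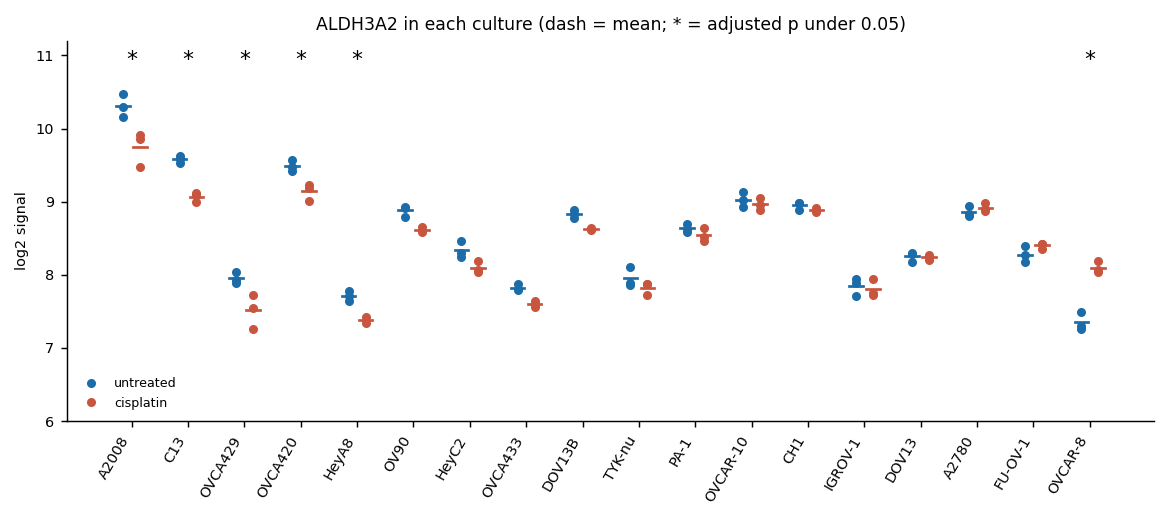
ALDH3A2 log2 signal in every untreated and cisplatin-treated culture of the 18 replicated lines, ordered by the change, with dashes at the means and stars where the adjusted p was under 0.05. The 5 starred lines at the left fell, and OVCAR-8 at the right rose from 7.35 to 8.10.

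ALDH3A2 passed in 6 lines, the most of the 8 genes. The fall was largest in A2008, where the untreated cultures had 10.15, 10.47 and 10.29 and the treated ones 9.47, 9.91 and 9.86. The change there was -0.56 ± 0.09 (SE, 3 against 3; limma, adjusted p = 4.03e-06). Without treated culture 1, at 9.47, it was -0.42 (limma, adjusted p = 0.00102), a smaller fall than in C13. In C13 the untreated cultures had 9.62, 9.59 and 9.53 and the treated ones had a mean of 9.07 and none above 9.12, a fall of 0.51 (adjusted p = 3.99e-06). It also fell by 0.44 in OVCA429, by 0.35 in OVCA420 and by 0.33 in HeyA8, the last of which did not pass without untreated culture 2 (adjusted p = 0.0629) or treated culture 3 (adjusted p = 0.174). Without treated culture 3 of OVCA420, the one nearer to OVCA429, the OVCA420 change was -0.28 (limma, adjusted p = 0.0480). OVCAR-8 went the other way: its untreated cultures, the lowest of batch 3, had 7.49, 7.31 and 7.25 and its treated ones 8.07, 8.19 and 8.04. This was a rise of 0.75 ± 0.09 (SE, 3 against 3; limma, adjusted p = 1.22e-10), a 1.68-fold increase. In these 6 lines treated and untreated cultures did not overlap. Neither did they in HeyC2, OV90, OVCA433 and DOV13B, where ALDH3A2 did not pass, so this does not set the 6 lines apart. In RMG-I, which had the lowest untreated ALDH3A2 of all, the single treated culture had 4.47 against 2.82, with no replicate. That untreated signal was not above the dim reference, whose median in batch 5 was 4.38, so the rise is taken against background.

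ALDH1A2, ALDH1A1 and ALDH2 all fell in FU-OV-1. ALDH1A2 went from 9.60, 9.64 and 9.83 to 8.37, 8.81 and 8.47, a 2.21-fold fall (change -1.14 ± 0.26, SE; limma, adjusted p = 0.000235). ALDH1A1 went from 9.49, 9.32 and 9.75 to 8.69, 9.01 and 8.85, a 1.59-fold fall (adjusted p = 0.00478), which missed the threshold without untreated culture 3 (adjusted p = 0.0502). ALDH2 went from 9.47, 9.35 and 9.52 to 8.69, 9.04 and 8.92 (adjusted p = 0.00107). No culture of 1 arm reached into the other for any of the 3. The share of all genes that passed or did not overlap in FU-OV-1 alone is not given here. The 3 falls are therefore not set apart from the wider response of that line. In OVCAR-8, the other line high in ALDH1A2, treated cultures at 6.24, 7.64 and 7.51 overlapped the untreated ones (change 0.13, adjusted p = 0.836). In A2008, ALDH1A2 had a change of -0.73 (adjusted p = 0.0839), and the high value among its cultures is that of untreated culture 1, at 7.03.

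ALDH1A1 rose in OVCA429, where the untreated cultures had 5.41, 5.37 and 5.14 and the treated ones 5.84, 5.62 and 6.66. The untreated level was not above the dim reference, so the difference is taken against a signal that includes background. The change of 0.73 ± 0.19 (SE; limma, adjusted p = 0.0132) did not pass without treated culture 3 (0.42, adjusted p = 0.407) or without untreated culture 3 (0.65, adjusted p = 0.116). In the lines with the highest ALDH1A1 the treated means were 12.92 in OVCA420, 13.42 in OV90 and 13.09 in IGROV-1, with changes of -0.16, 0.092 and 0.26 that did not pass. The ALDH1A3 change in OVCAR-10 came from treated culture 1, at 10.18 against 6.65 and 6.21 in the other treated cultures and 6.18, 5.66 and 6.64 in the untreated ones. This is the culture that correlated best with DOV13B, a line with ALDH1A3 at 11.35. The change was 1.52 with it (adjusted p = 0.00289) and 0.27 without it (adjusted p = 0.932), and without untreated culture 2 it was 1.27 (adjusted p = 0.0570). In no other replicated line did ALDH1A3 pass. The spread shared by all lines for ALDH1A3, an SD of 0.401, includes treated culture 1 of OVCAR-10, which limits calls in other lines. The treated OVCAR-10 cultures had an SD of 2.18. In A2780 the untreated cultures had 6.72, 6.84 and 6.97 and the treated ones 7.22, 7.42 and 7.43. This change of 0.51 did not pass (limma, adjusted p = 0.554).

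Of the mitochondrial enzymes, ALDH1B1 fell in IGROV-1 by 0.36, in A2008 by 0.29 and in PA-1 by 0.27, with adjusted p-values of 0.00255, 0.0233 and 0.0106. In IGROV-1 its untreated cultures had 10.12, 10.08 and 9.90 and the treated ones 9.74, 9.52 and 9.78, with no overlap. Each of the 3 calls was lost on leaving out some single culture: 4 of 6 in A2008, 2 of 6 in PA-1 (treated cultures 2 and 3) and 1 of 6 in IGROV-1 (treated culture 2). In A2008 these were untreated and treated cultures 2 and 3. ALDH2 rose in C13, from 8.29, 7.96 and 8.22 to 8.60, 8.86 and 8.61 (change 0.53 ± 0.14, SE; limma, adjusted p = 0.00415). Without untreated or treated culture 2 its adjusted p was 0.0559 and 0.0569. ALDH3A1 fell in A2008, from 10.20, 10.21 and 10.60 to 9.67, 9.94 and 9.84 (change -0.52 ± 0.14, SE; limma, adjusted p = 0.0137), and was lost without untreated culture 3 or treated culture 1. In C13, with the highest ALDH3A1 of all, the change of -0.28 did not pass. ALDH3B1 passed in none of the 18 lines, and its change there was lowest in FU-OV-1, at -0.27, and highest in OVCAR-8, at 0.34.

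Whether the response itself differed between the 18 lines was tested with limma's F test. The test was passed by 5 of the 8 genes, against 51% of all genes, so this share is near the background. ALDH3A2 had the smallest adjusted p at 3.86e-13, followed by ALDH2 at 0.000183, ALDH1B1 at 0.000686, ALDH1A1 at 0.00457 and ALDH3A1 at 0.0363. ALDH3B1, ALDH1A2 and ALDH1A3 had adjusted p-values of 0.108, 0.144 and 0.275. The spread of ALDH1A3 in this test includes treated culture 1 of OVCAR-10. Without that culture ALDH3B1 also passed, as did 9865 of 18417 genes, and ALDH1A2 and ALDH1A3 did not. The spread of ALDH1A2 includes untreated culture 1 of A2008, at 7.03. Without that A2008 culture ALDH1A2 also passed, as did 9460 genes. Without replicate number 1, ALDH1A2 and ALDH3B1 passed and ALDH3A1 did not, and 8379 genes passed.

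Of genes with related functions, listed by pathway, few passed over the 46 lines, where 9.7% of all genes did. Of 11 further aldehyde dehydrogenases, 1 (9.09%) fell, the mitochondrial proline synthesis enzyme ALDH18A1 (-0.19 ± 0.06, SE; limma, adjusted p = 0.0303), and 10 did not pass, with a median change of -0.04. Of 21 measured genes of the retinoid pathway, CRABP2, which carries retinoic acid in the cell, rose (0.31 ± 0.09, SE; adjusted p = 0.0200) and the nuclear receptor RXRA fell (-0.18 ± 0.05, SE; adjusted p = 0.0233). The other 19 did not pass, with a list median of -0.01, so that 9.52% of the list passed. Of 15 alcohol dehydrogenases and aldehyde reductases, 1 (6.67%) passed: ADH5, the glutathione-dependent formaldehyde dehydrogenase, fell (-0.15 ± 0.05, SE; adjusted p = 0.0403). Of 5 measured targets of the aryl hydrocarbon receptor, which also induces ALDH3A1, the quinone reductase NQO1 fell (-0.28 ± 0.05, SE; adjusted p = 0.000573) and 4 did not pass. Of 6 epithelial markers, KRT19 fell (-0.23 ± 0.08, SE; adjusted p = 0.0420), and none of 6 ovarian lineage, 6 endothelial and 6 fibroblast markers passed; among 9 leukocyte markers only LYZ, the lysozyme gene, rose (0.35 ± 0.10, SE; adjusted p = 0.0167). The part of these in the falls of ALDH2 and ALDH3A2 was not tested.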

How the data were processed

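The authors deposited log2 values of 33297 probe sets on 171 arrays, which the submitters' processing notes tie to RMA, with no version. Repeat arrays of 4 cultures were averaged, which left 167 cultures, 85 untreated and 82 treated. Of the probe sets, 19460 had a single symbol, giving 18417 genes. Upper quartiles of arrays were 7.82 to 8.08 in batches 1 to 3 and 5.80 to 6.59 in batches 4 and 5. The number of arrays limits the precision.

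Tests used limma 3.58.1 in R 4.3.3 (lmFit, eBayes), with Benjamini-Hochberg adjustment over all genes and a threshold of 0.05. OVCA433 had pairs in batches 2 and 4, whose differences were averaged with weights set by their numbers of cultures (the batch 2 pair alone entered the comparison between sets of batches); batch 5 also held untreated SKOV-3 and PA-1 without treated partners, which entered levels only. The fits were tested on simulated data. The 8 genes and the gene lists were chosen with earlier results of these data known. Named lines were the 3 highest or lowest of a batch or of the changes, or those with a call; from other lists, up to 4 genes past the threshold were named, and per gene the 3 most correlated ones. Alternatives changed the batches, lines, cultures, scaling, probe sets and filters. Coordinates come from the RefSeq promoter table alone; the genome build behind the arrays is not stated in the sources used here.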

Additional observations from a re-analysis of the deposited data

Results flagged for a closer look

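The response to cisplatin differed between the 18 replicated lines for 5 of the 8 genes by limma's F test. From the line with the lowest to the line with the highest change, the span on the log2 scale was 1.40 for ALDH1A1 (FU-OV-1 to OVCA429), 0.47 for ALDH1B1 (IGROV-1 to OVCAR-8), 1.09 for ALDH2 (FU-OV-1 to C13), 0.76 for ALDH3A1 (A2008 to DOV13B) and 1.31 for ALDH3A2 (A2008 to OVCAR-8). The adjusted p-values were 0.00457, 0.000686, 0.000183, 0.0363 and 3.86e-13, and 51% of all genes passed the same test. Without replicate number 2, only ALDH2 and ALDH3A2 of the 8 passed, as did 3694 of 18417 genes. Untreated ALDH1A1 in OVCA429 was not above the dim reference, and its change was 0.42 without treated culture 3. Untreated ALDH3A1 in DOV13B was 6.04, where the lowest line of batch 3 had 5.72, and its change of 0.24 did not pass.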

How the results depend on the processing

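Over all lines, 2 of the 8 genes passed, ALDH3A2 and ALDH2. With batches weighted equally, in batches 1 to 3 alone, without batch 4, and when changes were tested against a minimum of 1.2-fold, 0 passed. Over all genes 1787 passed, and under these same settings 646, 1368, 629 and 6 did, with 948 in batches 4 and 5 alone. In batches 4 and 5 alone, and without HeyC2, Hey, DOV13A, DOV13B, A2780cisR and C13 as relatives of other lines, 1 passed, ALDH2. With a robust and trended spread 1 passed, ALDH3A2, as it did without the arrays that stood apart, an alternative chosen after seeing the data. Leaving out any 1 of 20 lines also left 1: PA-1, OV90, FU-OV-1, M41, ovary1847, Caov-3, Hey, JHOS-2, JHOS-3, OAW28, OAW42, DOV13A, OVCAR-3, OVCAR-2, OVCAR-5, OVK-18, PEO1, RMG-II, SKOV-3 and TOV-112D, and in each case ALDH2 was the gene lost. The ALDH2 change was above 0 in batches 1 to 3 alone (0.013), in batch 1 (0.013) and in batch 3 (0.21); the cause was not tested. Within replicated lines, 16 pairs passed, 2 with a minimum change of 1.2-fold (ALDH3A2 in OVCAR-8 and ALDH1A2 in FU-OV-1) and 9 to 17 without 1 replicate number or culture, the highest without treated culture 1 of OVCAR-10, where ALDH1A3 was lost. Genes whose response differed between lines numbered 5, and 2 to 6 without 1 replicate number or culture, where fewer cultures enter. Only ALDH2 and ALDH3A2 passed in each setting. Without replicate number 2 they alone passed (3694 of 18417 genes did), and without number 3 ALDH1B1 also did (5712 genes). Median centring, which uses all cultures, lost ALDH3A1. Deviations of same-numbered cultures correlated over 0.1 in 7 of 53 pairs, with a median of -0.025, and the main model did not pair cultures by number. Such correlations cannot show whether same-numbered cultures were grown as pairs. With the replicate block, 14 pairs passed and 2 genes over all lines, and ALDH3A2 in HeyA8 (adjusted p = 0.0627) and ALDH1B1 in A2008 (adjusted p = 0.0510) were lost. Quantile normalization within batch, median centring, the mean of probe sets and leaving out dim genes, among which was ALDH1A2, kept both calls over all lines. The untreated differences between lines passed for each gene tested under each of these scalings and without each replicate number. Signals near the dim reference, as for ALDH1A1 and ALDH1A2 in most lines and ALDH3A1 in part of batches 4 and 5, limit how low a level or a fall can be measured.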

Other observations

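Hey was among the 3 highest or lowest changes for 4 of the 8 genes, ALDH1A2 (1.11), ALDH1B1 (-1.77), ALDH2 (-1.21) and ALDH3A2 (-0.96), more than any other line, and its treated array is the one in which 37.7% of genes differed by more than 1. Untreated Hey had ALDH1A2 at 3.75, not above the dim reference, and ALDH1A3 at 7.79, number 4 of 19 lines in batch 5.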
